A study of Mus musculus with 4 samples.

Results

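Heterotrimeric G proteins and the proteins that switch them off were described in the transcriptome of mouse brain septal tissue. The members were all deposited gene rows whose symbol begins with Rgs or Gng and a digit, the rows Gnb1 to Gnb5, and 12 named Gα genes from Gnas to Gnaz. The rule itself reads gene names and uses no measured value. The files listed 45 such genes among 15409 gene rows, namely 12 Gα, 5 Gβ, 10 Gγ and 18 Rgs genes. Rgs7bp enters through its symbol and encodes a membrane anchor for RGS proteins, not an RGS protein. GENCODE M21 has 50 protein-coding genes that match the rule. The other 5, Rgs1, Rgs13, Rgs18, Rgs21 and Rgs9bp, were not analysed here.

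A G protein is a switch of 3 subunits, Gα, Gβ and Gγ, on the inner face of the cell membrane. A receptor for a transmitter, peptide or hormone loads GTP onto Gα, which then separates from the paired Gβ and Gγ. The stimulatory subunits Gαs (Gnas) and Gαolf (Gnal) raise cAMP. The Gi, Go and Gz subunits lower it or act through Gβγ, and Gq and G11 activate phospholipase C-beta. G12 and G13 form a further group. RGS proteins, the regulators of G protein signalling, speed the hydrolysis of GTP and so end the signal. In the striatum, which borders the septum, Gαolf with Gγ7 (Gng7) drives adenylyl cyclase 5 (Adcy5) downstream of dopamine and adenosine receptors. RGS9 in striatal neurons works as a complex with Gβ5 (Gnb5) and the anchor Rgs7bp.

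The study held 4 RNA-seq libraries, each from septal tissue pooled from 4 to 5 mice, so that a replicate is a pool and not an animal. In 2 libraries the mice were TCRb-/-, which lack the T cell receptor's beta chain, and in 2 they were wild-type (WT). Both genotypes went through restraint in a plastic cone on 3 days, each time for 30 min, with tissue taken 1.5 h after the final one, so no unstressed group was compared. The labels give no strain, age or sex. Replicate 1 of each genotype belongs to experiment 1 and replicate 2 to experiment 2, which the labels call a batch. Levels are given as CPM, reads per 1000000 of the library total. Totals ran from 19988137 to 26210790 reads. Trbc2, a constant segment of the missing receptor chain, had 0 reads in both TCRb-/- libraries and 169 and 86 in WT. Of 12 septal marker genes 11 were listed, with a summed level of 493 to 567 CPM over the libraries. The sum hides movements in both directions, since 6 of the 11 were called between experiments, 4 higher in experiment 2 and 2 lower. On the log2(CPM + 1) scale Gal rose most (1.38) and Dgkh fell most (-1.20). Sst, the most abundant of them, was nearly level (0.02). Genes of neighbouring tissue were present too, and 15 of 15 striatal genes were listed at a summed 6035 CPM in TCRb-/- replicate 1 and 1445 in replicate 2, and 5395 and 3216 CPM in WT. The TCRb-/- library of experiment 2 was thus the lowest of the 4 in striatal genes, for 15 of 15 of them. Choroid plexus genes, by contrast, were highest in that library, with 11 of 12 called higher in experiment 2 and summed levels from 1312 to 6878 CPM. Since 2 pools against 2 allow no two-sided exact permutation p under 0.333, tests are from a limma model over 13912 genes.

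Stretches of promoter sequence are shown for the 4 members on which the results below turn: Gng7 and Rgs9, which fell most between experiments, Rgs4, which fell by nearly the same share in both genotypes, and Gng3, which rose. Each is the 250 bases before a RefSeq transcription start in GRCm38, all on the minus strand and printed 5′ to 3′ of the gene. By symbol, 35 of the 45 members matched at least 1 RefSeq start. Capitals mark the letters GGGCGG (a GC box) on either strand, the letters TGACG (the core of the cAMP response element) on either strand, and TATAAA on the gene's own strand.
Gng7, chr10:81014926-81015175: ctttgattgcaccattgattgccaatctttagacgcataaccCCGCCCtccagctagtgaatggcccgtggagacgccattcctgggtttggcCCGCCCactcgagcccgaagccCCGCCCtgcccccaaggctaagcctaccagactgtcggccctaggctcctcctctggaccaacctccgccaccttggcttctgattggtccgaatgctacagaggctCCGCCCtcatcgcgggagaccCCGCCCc
Rgs9, chr11:109298182-109298431: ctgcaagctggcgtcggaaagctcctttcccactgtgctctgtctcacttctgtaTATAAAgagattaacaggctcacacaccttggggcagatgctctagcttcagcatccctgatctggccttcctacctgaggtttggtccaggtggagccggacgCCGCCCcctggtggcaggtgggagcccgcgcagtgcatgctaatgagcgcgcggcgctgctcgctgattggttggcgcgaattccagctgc
Rgs4, chr1:169747643-169747892: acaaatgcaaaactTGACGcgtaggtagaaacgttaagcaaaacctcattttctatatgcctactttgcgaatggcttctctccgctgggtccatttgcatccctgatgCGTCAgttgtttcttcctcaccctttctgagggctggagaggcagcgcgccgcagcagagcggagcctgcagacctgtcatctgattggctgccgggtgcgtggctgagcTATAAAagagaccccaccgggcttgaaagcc
Gng3, chr19:8839247-8839496: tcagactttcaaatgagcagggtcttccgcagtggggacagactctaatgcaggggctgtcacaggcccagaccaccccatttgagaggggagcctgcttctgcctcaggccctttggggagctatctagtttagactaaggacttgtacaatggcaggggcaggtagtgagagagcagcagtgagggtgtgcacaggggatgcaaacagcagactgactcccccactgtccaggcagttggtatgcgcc
The genes run, in GENCODE M21, over 80948624 to 81014945 on chromosome 10 (Gng7), 109225355 to 109298129 on chromosome 11 (Rgs9), 169741477 to 169747642 on chromosome 1 (Rgs4) and 8836933 to 8839194 on chromosome 19 (Gng3). The Rgs9, Rgs4 and Gng3 windows lie wholly upstream of the annotated gene, and the last bases of the Gng7 window fall in its annotated first exon. The Gng7 window is that of the start farther upstream of 2 in RefSeq and holds 5 GC boxes. The window of the other Gng7 start, not printed, has the TGACG letters 109 bases before the start and no GC box. The Rgs9 window has a GC box and a TATAAA, which lies 195 bases before the start. The Rgs4 window has TATAAA 31 bases before the start and 2 copies of the TGACG letters, at 236 and 141 bases. The Gng3 window has none of these letters. Over 32851 windows of all genes, 32.7% held a GC box, 17.8% TGACG and 7.59% TATAAA, and of 48 windows of the members 25, 11 and 4 did. The full palindrome TGACGTCA was in 1.55% of all windows and in 0 of 48. A match of letters is a description of the window and not a binding site.

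**Figure D1:**
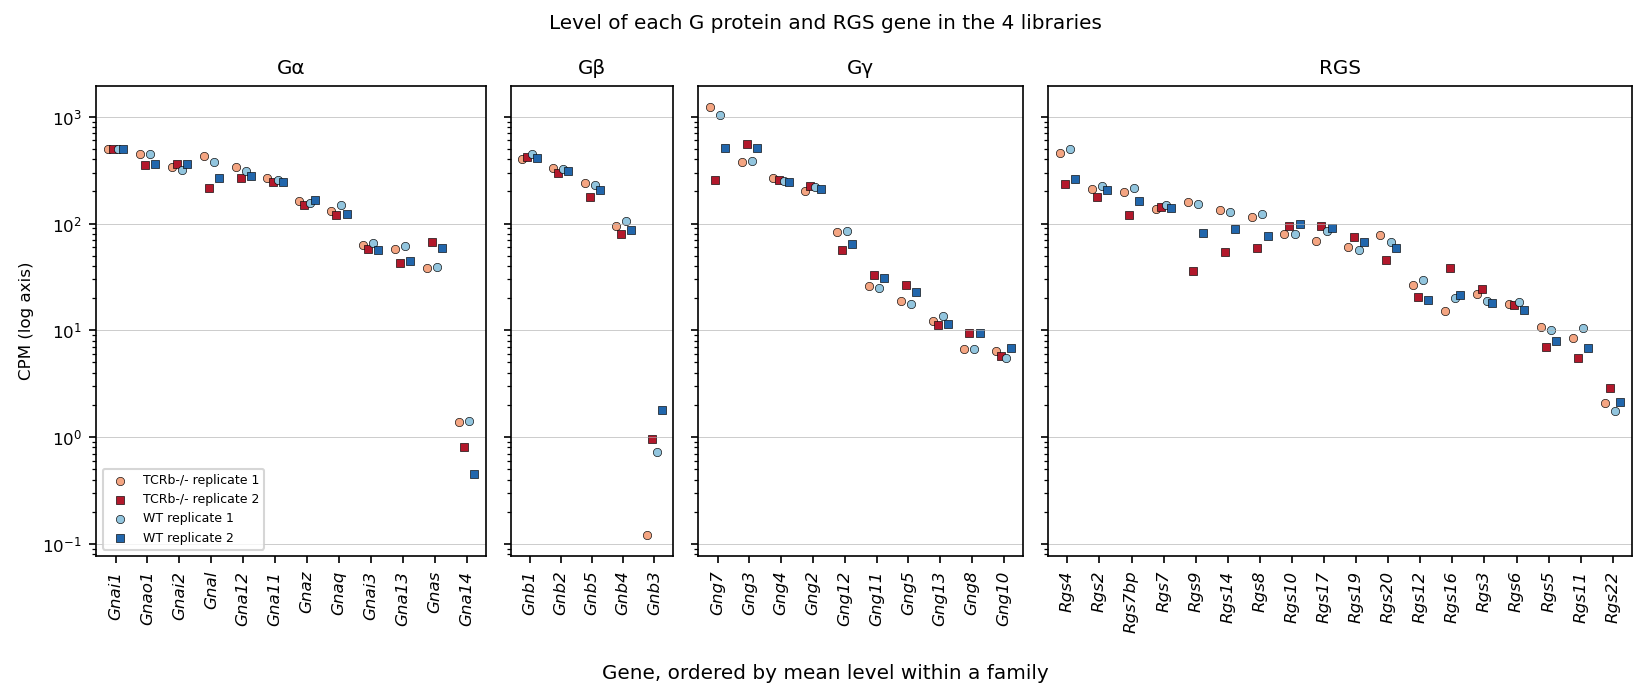
Level of each of the 45 genes in CPM (log axis) in the 4 libraries, by family and ordered by mean level; circles are experiment 1, squares experiment 2, red TCRb-/- and blue WT, with 1 point per library. Gng7 and Rgs9 show the widest spread among abundant genes, with TCRb-/- replicate 2 lowest at 253 and 36.1 CPM, whereas Gnai1 lies between 494 and 503 CPM in every library.

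The make-up of the G protein pool was compared first, as CPM per kilobase of the longest coding transcript, since levels of different genes can be compared only per length. Among Gα genes, Gnai1 (mean 159 CPM per kb) and Gnai2 (156) stood highest, and both encode inhibitory subunits. The Gi, Go and Gz genes together made up 61.0% and 65.7% of the Gα sum in TCRb-/- replicates 1 and 2, and 61.7% and 64.9% in WT. The Gq and G11 genes made up 13.5% to 14.0%, and G12 and G13 12.5% to 14.3%. The stimulatory genes Gnas and Gnal made up 11.2% and 8.07% in TCRb-/- replicates 1 and 2, and 10.5% and 8.84% in WT. The Gnas level is uncertain, since 23.7% of its exon bases are shared with genes on the opposite strand. The Gα sum and the shares carry that limit. These figures also depend on the length used. With the median coding transcript Gnai2 (194 CPM per kb) came before Gnai1 (159), and Gnal (143) came next. The share of Gnas and Gnal was then 14.3% to 21.0%, and that of the Gi, Go and Gz genes 56.6% to 63.5%. Gna14, of the Gq group, was the lowest at 0.31 CPM per kb, on 34, 16, 37 and 10 reads. Among Gβ genes, Gnb2 (170 CPM per kb) and Gnb1 (134) were highest. Gnb3, which is known from photoreceptors and taste cells, was lowest with 3 and 19 reads in TCRb-/- and 19 and 40 in WT. Its mean of 0.897 CPM was under the 1 CPM needed for testing, so 44 of the 45 genes were tested.

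Among Gγ genes, Gng3, a neuronal subunit (mean 280 CPM per kb), and Gng7 (220) were highest, and their order differed between experiments. In TCRb-/- replicate 1 Gng7 made up 44.04% and Gng3 28.5% of the Gγ sum, and in WT replicate 1 39.8% and 31.1%. In TCRb-/- replicate 2 the shares were 11.4% for Gng7 and 52.8% for Gng3, and in WT replicate 2 21.8% and 45.8%. Gng7 thus led in both pools of experiment 1 and Gng3 in both of experiment 2. The lengths matter here: with the median coding transcript in place of the longest, Gng2 (416 CPM per kb) came before Gng3 and Gng7, since its median annotated transcript is far shorter than its longest. Among Rgs genes, Rgs4 (123 CPM per kb) and Rgs10 (101) were highest, and Rgs22 was lowest at 0.55.

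**Figure D2:**
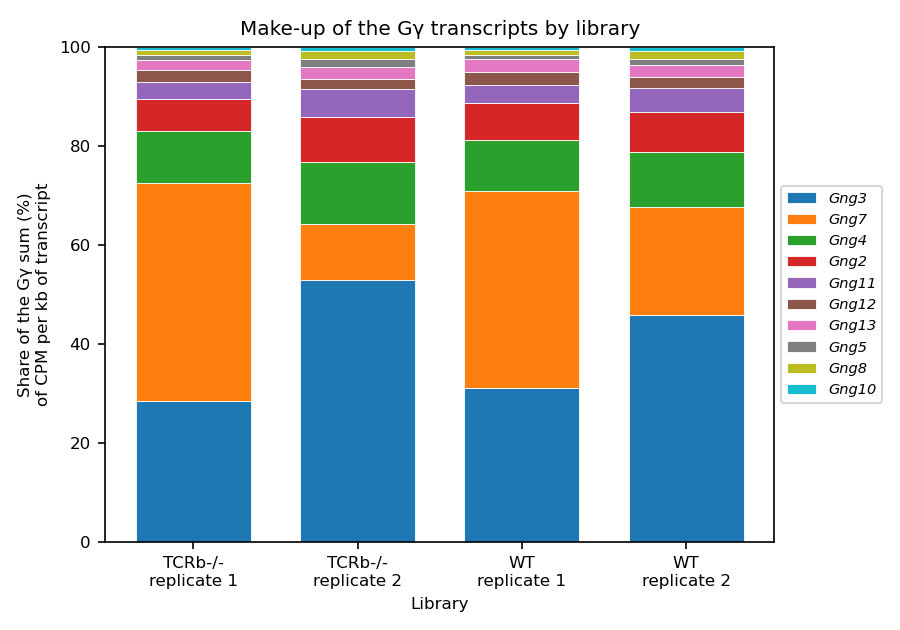
Share of each Gγ gene in the summed Gγ level (CPM per kb of the longest coding transcript, in %) in each library. Gng7 falls from 44.04% to 11.4% between TCRb-/- replicates 1 and 2 and from 39.8% to 21.8% in WT, and Gng3 takes the largest share in both replicates numbered 2.

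Which of these genes differed between TCRb-/- and WT was the question of the main comparison. None of the 44 passed an adjusted p of 0.05 in limma, nor did any with the experiment as a block, where 0.0144% of all 13912 genes passed (0% without it). At an unadjusted p under 0.05 limma gave 0 of 44 members (background 0.309%), 0 of 44 also with voom weights at the adjusted threshold, and with the block 4 of 44 (background 5.64%). The median difference over the members was -0.02 on the log2(CPM + 1) scale, and 0.00 over all genes tested. TCRb-/- was above WT in both experiments for 7 members and below it in both for 11, against 27% and 24.5% of all genes.

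In 2 members both TCRb-/- pools lay above both WT pools, and in 0 both lay below, against a background of 9.76% and 8.04% of genes. Rgs3, a regulator of Gi and Gq signalling, had 21.7 CPM in TCRb-/- replicate 1 and 24.3 in replicate 2, and 18.9 and 17.9 CPM in WT. The groups did not overlap, and the difference was 0.30 (SE 0.15, unadjusted limma p 0.0999, adjusted p 1.00; with the block 0.0263 and 0.848). Gng4, a Gγ subunit of neurons, had 268 and 258 CPM in TCRb-/- and 248 and 243 CPM in WT, a difference of 0.10 (SE 0.12, adjusted p 1.00 in limma). With the experiment as a block the standard error for Gng4 was 0.07 and the unadjusted limma p 0.163 (adjusted p 0.890).

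The other members with an unadjusted p under 0.05 in the blocked fit were Rgs7bp (0.0123), Rgs8 (0.0269) and Rgs9 (0.0484), each with an adjusted p of 0.848 in limma. Rgs7bp had 198 CPM in TCRb-/- replicate 1 and 120 in replicate 2, and 216 and 163 CPM in WT. Rgs8, an RGS protein of the small R4 group, had 115 and 59.3 CPM in TCRb-/- and 123 and 76.6 CPM in WT. The difference between TCRb-/- and WT within experiments 1 and 2 was -0.13 and -0.43 for Rgs7bp and -0.10 and -0.36 for Rgs8. In both genes the pools of the genotypes overlapped, and experiment 2 was lower than experiment 1 in each genotype.

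In several members the genotype difference was of opposite sign in the 2 experiments. TCRb-/- minus WT for Gng7 was 0.24 in experiment 1 and -1.01 in experiment 2, and for Rgs9 0.07 and -1.16. For Gnal it was 0.18 and -0.30, and for Rgs14, a scaffold protein of the R12 group, 0.06 and -0.73. Rgs16, of the R4 group, went the other way, with -0.38 in experiment 1 and 0.82 in experiment 2. With 1 library per genotype in each experiment, no test of these differences between experiments was possible. Over the 44 members, 15 were higher in TCRb-/- in experiment 1 and lower in experiment 2 (background 24.6%), and 11 the reverse (23.9%).

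**Figure D3:**
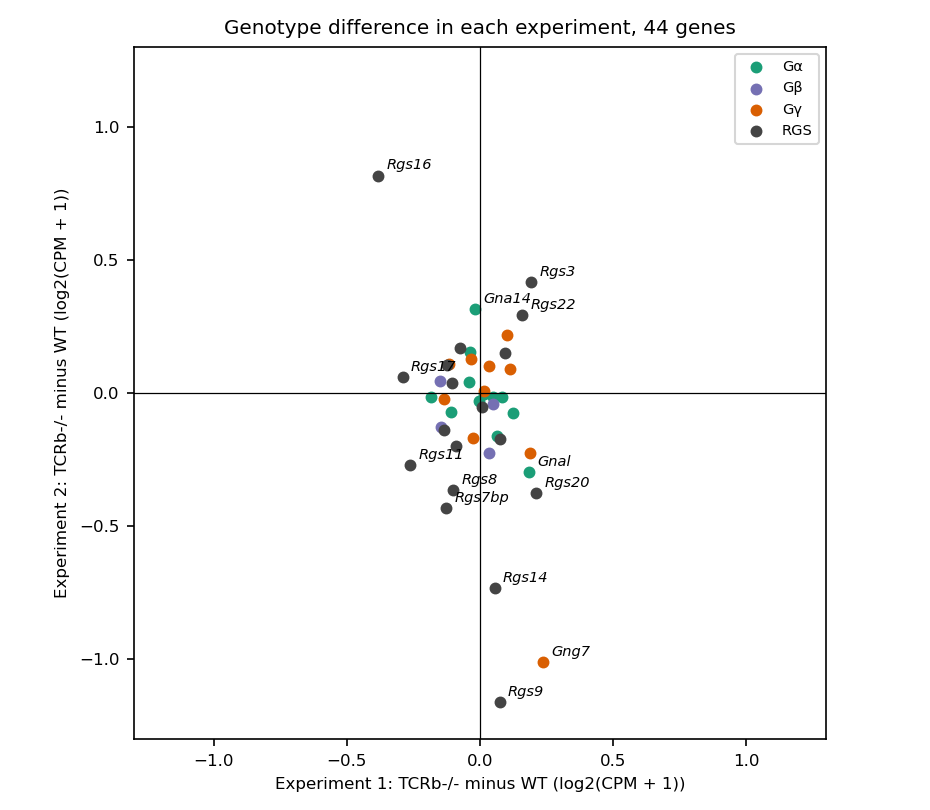
Difference between TCRb-/- and WT on the log2(CPM + 1) scale in experiment 1 (horizontal axis) and experiment 2 (vertical axis), 1 point per tested member coloured by family, 1 library per genotype in each experiment. Most points lie near the centre, Rgs9 and Gng7 lie far below the horizontal line at -1.16 and -1.01, and Rgs16 lies above it at 0.82.

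Leaving out TCRb-/- replicate 1, so that TCRb-/- replicate 2 stood alone against both WT pools, 2 members passed the threshold (background 0.338% of genes): Gng7 at -1.52 (adjusted limma p 0.0149) and Rgs9 at -1.60 (0.00638). Without TCRb-/- replicate 2, 0 members passed (background 0.00719%), and the differences were 0.75 for Gng7 and 0.51 for Rgs9. These calls rest on the library in which 15 of 15 striatal genes were lowest.

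The experiments were then compared, with 1 pool of each genotype on either side. Limma called 21 of 44 members (47.7%), where 23.7% of all genes were called. Of these, 15 were lower in experiment 2 (background 14.7% of genes) and 6 were higher (8.95%). Under quantile normalization 7 were higher and 14 lower, and of all called genes 50.6% were higher in place of 37.8%. By family, 9 of 18 Rgs genes were called (8 lower), 6 of 10 Gγ (2 lower and 4 higher), 5 of 12 Gα (4 lower) and 1 of 4 Gβ (lower). Most members are abundant. With only genes of a mean of at least 10 CPM tested, limma called 20 of 38 members and 3019 of 9821 genes. Both pools of experiment 2 lay beyond both of experiment 1 in 37 members, 26 lower and 11 higher (background 67.3%, with 37.2% lower and 30.1% higher). The library of TCRb-/- replicate 2 was the lowest of the 4 for 23 members (background 31.7%) and the highest for 11 (28.8%). The median difference of the members was -0.15 and that of all genes -0.03. The call rests on the mean-variance trend in limma, without which 2 of the 21, Rgs4 and Gnas, were called (all genes, 629 in place of 3292). Without TCRb-/- replicate 1, TCRb-/- replicate 2 or WT replicate 1 there were 10, 13 and 10 called members. With each library left out in turn, 8 of the 21 kept their call every time, namely Gng7, Gng3, Gng12, Gnal, Gnao1, Gnas, Rgs4 and Rgs8, and 3 lost it every time, namely Gng8, Gng11 and Rgs10.

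**Figure D4:**
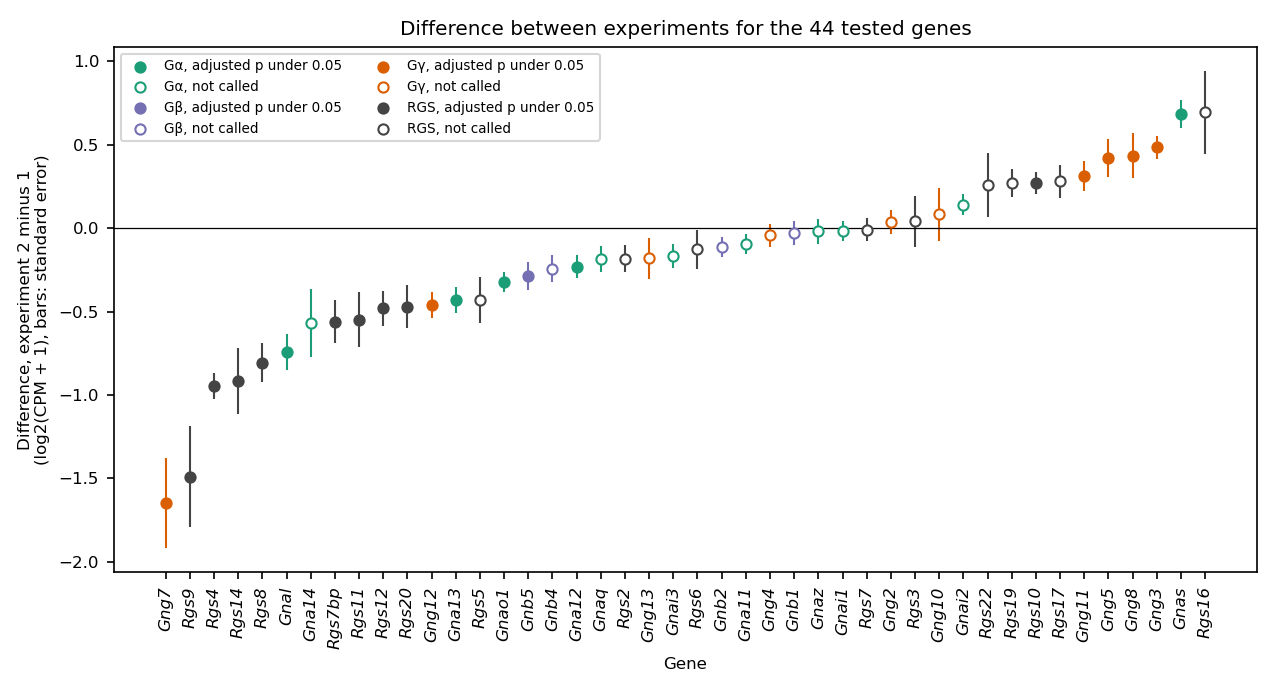
Difference between experiment 2 and experiment 1 for the 44 tested members on the log2(CPM + 1) scale, ordered by size, with bars of 1 standard error from limma; filled points passed an adjusted p of 0.05. Gng7 (-1.65) and Rgs9 (-1.49) are the lowest points, Gnas (0.69) is the highest filled point, and Rgs16 (0.70) is open with a wide bar.

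Gng7 and Rgs9, genes of dopamine-responsive striatal neurons, were the members lowered most. Gng7 had 1224 CPM in TCRb-/- replicate 1 and 253 in replicate 2, and 1038 and 511 CPM in WT. Its level in experiment 2 was 20.7% of that in experiment 1 in TCRb-/- and 49.2% in WT, and the difference of -1.65 (SE 0.27) passed the threshold (adjusted limma p 0.00836). Rgs9 had 159 and 36.1 CPM in TCRb-/- and 151 and 82.0 CPM in WT, a difference of -1.49 (SE 0.30, adjusted limma p 0.0143). Without the mean-variance trend the adjusted limma p was 0.0551 for Gng7 and 0.0698 for Rgs9. The Rgs9 call, unlike that of Gng7, was also lost with replicate 1 of either genotype left out. Adcy5, the cyclase of the pathway and no member, had 328 and 82.4 CPM in TCRb-/- and 292 and 160 CPM in WT (-1.42, SE 0.25, adjusted limma p 0.00976). In each of these 3 genes the pools of experiment 1 were close to each other, and in experiment 2 TCRb-/- lay below WT. Gnal had 429 and 217 CPM in TCRb-/- and 378 and 266 CPM in WT, which was a smaller difference of -0.74 (SE 0.11, adjusted limma p 0.00635).

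The summed level of the 15 striatal genes in experiment 2 was 23.9% of that in experiment 1 in TCRb-/- and 59.6% in WT, and all 15 were called lower by limma. Set against that sum, Rgs9 was nearly level over the libraries, at 26.4 and 25.0 CPM per 1000 CPM of striatal genes in TCRb-/- replicates 1 and 2 and 28.0 and 25.5 in WT. Adcy5 was at 54.3 and 57.0 in TCRb-/- and 54.2 and 49.8 in WT. Gng7 ran from 159 to 203, with both pools of experiment 2 below both of experiment 1. Gnal was not level: it stood at 71.2 and 150 in TCRb-/- and 70.1 and 82.8 in WT, highest where striatal genes were lowest. All of these ratios depend on the mix of genes in the sum, which did not move alike. Between experiments its genes differed from -0.82 (Tac1) to -2.43 (Scn4b), with -1.60 for Ppp1r1b, the most abundant. The part of the striatal genes in the differences between experiments was not tested. In bulk tissue, fewer cells of a type and less RNA per cell cannot be told apart.

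**Figure D5:**
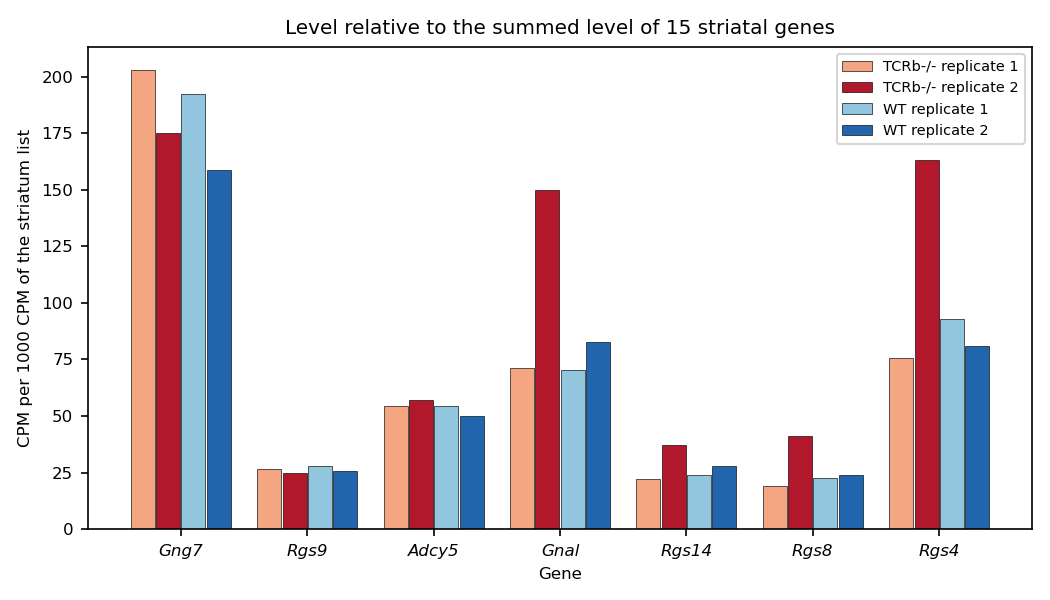
Level of 6 members and of Adcy5 per 1000 CPM of the summed level of 15 striatal genes, 1 bar per library. The bars of Rgs9 (25.0 to 28.0) and Adcy5 (49.8 to 57.0) are nearly level. TCRb-/- replicate 2 stands highest for Gnal (150), Rgs4 (163), Rgs14 (37.1) and Rgs8 (41.1), and by less for Adcy5. Any gene lowered less than the sum rises in this ratio, which depends on the mix of genes in the sum.

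The partners of RGS9 were lower in experiment 2 by smaller amounts. Rgs7bp differed by -0.56 (SE 0.13, adjusted limma p 0.0208). Its call, like that of Rgs9, was lost with replicate 1 of either genotype left out. Gnb5, the Gβ that pairs with the R7 group of RGS proteins, had 238 and 178 CPM in TCRb-/- and 232 and 208 CPM in WT (-0.29, SE 0.08, adjusted limma p 0.0425). The Gnb5 call was lost under median-of-ratios scaling (0.0610), without the trend (0.131) and with any library but WT replicate 2 left out (0.0954 to 0.244). Gpr158, a receptor that binds R7 proteins and no member, had 45.1 and 18.7 CPM in TCRb-/- and 41.4 and 24.6 CPM in WT (-0.98, SE 0.13, adjusted limma p 0.00580). Rgs11, another R7 gene, had 8.54 and 5.50 CPM in TCRb-/- and 10.5 and 6.84 CPM in WT (-0.55, SE 0.16, adjusted limma p 0.0473). It lost its call without a filter on low values, under both other scalings, with voom weights and without the trend, at adjusted p-values from 0.0513 to 0.0725 in limma. The Rgs11 call was also lost with any library but WT replicate 2 left out. Rgs7 and Rgs6, of the same group, did not pass: Rgs7 lay between 138 and 148 CPM and Rgs6 between 15.4 and 18.5 CPM in the 4 libraries. The ratio of Rgs9 to Rgs7 reads was accordingly 1.15 and 1.02 in the pools of experiment 1, and 0.251 in TCRb-/- and 0.585 in WT in experiment 2.

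Rgs4, an RGS protein of cortical and other forebrain neurons that acts on Gi and Gq, fell by nearly the same share in both genotypes. It had 456 CPM in TCRb-/- replicate 1 and 236 in replicate 2, and 501 and 260 CPM in WT, so that experiment 2 was at 51.8% of experiment 1 in TCRb-/- and 51.9% in WT. The difference of -0.94 (SE 0.08) had the smallest adjusted p of the members (0.00235, limma). The summed level of 12 cortical and hippocampal genes was 56.8% and 55.9% of experiment 1, with 8 of 12 called and 7 of those lower. Rgs4 stood at 831 and 757 CPM per 1000 CPM of those genes in TCRb-/- and 832 and 771 in WT. Both figures depend on the mix of genes in the sum, which did not move alike. Slc17a7 (-2.79) and Neurod6 (-3.08) fell far more between experiments than Rgs4. Wfs1, the most abundant gene of the list, was not called (-0.36), and Nrn1 was called higher (0.61). Adcy1, a calcium-stimulated cyclase and no member, had 69.1 and 36.0 CPM in TCRb-/- and 71.7 and 31.9 CPM in WT (-1.03, SE 0.09, adjusted limma p 0.00253). The part of cortical or hippocampal tissue in these values was not tested.

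Rgs14 and Rgs8 fell as well. Rgs14 had 134 and 53.6 CPM in TCRb-/- and 129 and 89.7 CPM in WT (-0.92, SE 0.20, adjusted limma p 0.0168). Rgs8 differed by -0.81 (SE 0.12, adjusted limma p 0.00635). Both were lowest in TCRb-/- replicate 2, and the Rgs14 call was lost with replicate 1 of either genotype left out. Rgs12, a large member of the R12 group, had 26.8 and 20.6 CPM in TCRb-/- and 29.3 and 19.1 CPM in WT (-0.48, SE 0.10, adjusted limma p 0.0166). Rgs20, of the RZ group that acts on Gz and Gi, differed by -0.47 (SE 0.13, adjusted limma p 0.0361). Rgs20 had 78.1 and 45.6 CPM in TCRb-/- but 67.4 and 59.4 CPM in WT, so its difference was mostly that of the TCRb-/- pools. The Rgs20 call was lost with any library but WT replicate 2 left out, and that of Rgs12 without WT replicate 1.

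Among the remaining Gα and Gγ genes, 4 were called lower. Gna13 and Gna12 make up the G12 group. Gna13 had 57.2 and 42.7 CPM in TCRb-/- and 61.7 and 44.9 CPM in WT (-0.43, SE 0.08, adjusted limma p 0.0114). Gna12 had 335 and 266 CPM in TCRb-/- and 307 and 280 CPM in WT (-0.23, SE 0.07, adjusted limma p 0.0478), and its call was lost with genotype as a term (0.0556), with no filter (0.0504), under median-of-ratios scaling (0.0714) and without the trend (0.143). The Gna12 call was also lost with any library but WT replicate 1 left out. Gnao1, the main Gα of neurons, had 448 and 355 CPM in TCRb-/- and 449 and 362 CPM in WT (-0.32, SE 0.06, adjusted limma p 0.0116). Gng12 had 82.9 and 57.1 CPM in TCRb-/- and 84.5 and 64.3 CPM in WT (-0.46, SE 0.08, adjusted limma p 0.00933). The Gna13 call was lost without WT replicate 1. In Gna13, Gnao1 and Gng12 the genotypes were close to each other within each experiment.

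The called members that rose were Gnas, 4 Gγ genes and Rgs10. Gnas had 38.2 and 66.5 CPM in TCRb-/- and 39.3 and 59.6 CPM in WT (0.69, SE 0.08, adjusted limma p 0.00503). Gnas and Gnal, the 2 stimulatory subunits, thus moved in opposite directions, and their ratio of Gnal to Gnas reads went from 11.2 to 3.26 in TCRb-/- and from 9.63 to 4.47 in WT. Gng3 had 379 and 561 CPM in TCRb-/- and 388 and 513 CPM in WT (0.48, SE 0.07, adjusted limma p 0.00623). Both Gnas and Gng3 share exon bases with genes on the opposite strand, which limits how far their levels can be assigned. The other Gγ genes that rose, Gng5, Gng11 and Gng8, were far less abundant. Gng5 had 18.9 and 26.7 CPM in TCRb-/- and 17.5 and 22.8 CPM in WT (0.42, SE 0.12, adjusted limma p 0.0359). Gng11 had 25.8 and 33.0 CPM in TCRb-/- and 25.1 and 30.7 CPM in WT (0.31, SE 0.09, 0.0456). Gng8 had 6.71 and 9.41 CPM in TCRb-/- and 6.64 and 9.35 CPM in WT (0.44, SE 0.13, 0.0499). The Gng8 call was lost with genotype as a term, pseudocount 0.1, no filter, voom weights or no trend, at adjusted limma p-values from 0.0505 to 0.0591. The Gng5 call was lost with any library but WT replicate 2 left out. In Gng11 and Gng8 the genotypes nearly coincided within each experiment. Rgs10, an RGS protein abundant in microglia and also made by neurons, had 80.6 and 95.6 CPM in TCRb-/- and 80.2 and 99.0 CPM in WT (0.27, SE 0.07, adjusted limma p 0.0245). The 10 microglial marker genes had a summed level of 199 to 212 CPM over the libraries, and 1 of 10 was called, lower in experiment 2.

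The members called higher between experiments, of which 4 of 6 were Gγ genes, had a shorter median transcript, but lengths overlapped. Gnas, called higher, has a longest transcript of 3.95 kb, Rgs11, called lower, 2.01 kb, and Gng13, not called, 0.72 kb. The members called higher had a median longest transcript of 1.28 kb, those called lower 3.464 kb and those not called 3.26 kb, against 3.18 kb over 13519 genes with a length. Taken over genes (no independent replicates), length and the difference between experiments had a Spearman correlation of -0.472 over those genes and of -0.373 over the 44 members. The part of length in the calls was not tested. Rgs8 and Rgs17, of which the first was called lower, have the longest transcripts of the 45 genes, at 8.47 and 8.19 kb. Rgs17 had 69.2 and 95.4 CPM in TCRb-/- and 84.9 and 91.4 CPM in WT (0.28, adjusted limma p 0.0771).

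Rgs16 stood apart in a single library. It had 15.1 CPM in TCRb-/- replicate 1 and 38.6 in replicate 2, and 20.03 and 21.5 CPM in WT, and did not pass the threshold between experiments (0.70, SE 0.25, adjusted limma p 0.0782). Thalamic genes were highest in the same library, for 11 of 11 listed, with a summed level of 411 and 847 CPM in TCRb-/- and 412 and 550 CPM in WT. Rgs16 per 1000 CPM of thalamic genes was 36.8 and 45.5 in TCRb-/- and 48.6 and 39.0 in WT. Whether thalamic tissue contributed to Rgs16 was not tested. Its direct neighbour on chromosome 1, Rgs8 (153653025 to 153700323, GRCm38), went the other way, and the ratio of Rgs8 to Rgs16 reads ran from 7.57 to 1.54 in TCRb-/- and from 6.14 to 3.57 in WT.

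Rgs5, known as a gene of pericytes, lies on the same chromosome beside Rgs4 (169655501 to 169695813 and 169741477 to 169747642). It had 10.7 and 6.95 CPM in TCRb-/- and 10.1 and 7.96 CPM in WT, and its difference of -0.43 (SE 0.14) did not pass (adjusted limma p 0.0581). All 10 mural cell markers were lower in both pools of experiment 2, with summed levels of 69.0 and 31.1 CPM in TCRb-/- and 62.0 and 32.9 CPM in WT. Of the 9 tested, limma called 5: Tagln (-1.79), Acta2 (-1.77), Myh11 (-1.07), Notch3 (-0.78) and Vtn (-0.58). Kcnj8 (-0.16), Cspg4 (-0.18), Higd1b (-0.34) and Pdgfrb (-0.42) were not called. The part of vessel cells in the Rgs5 values was not tested.

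Rgs2, which is induced by neuronal activity and acts mainly on Gq, did not pass in either comparison. It had 210 and 178 CPM in TCRb-/- and 224 and 204 CPM in WT. TCRb-/- minus WT was -0.09 in experiment 1 and -0.20 in experiment 2. Of 12 activity-induced genes, 6 were called between experiments in limma, 5 of them lower in experiment 2 and 1 higher. By genotype 0 of 12 passed. On chromosome 1, Rgs2 (143999338 to 144004161) is followed by Rgs13, Rgs1, Rgs21 and Rgs18, the last of which ends at 144775435. These 4 neighbours were not analysed here.

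The remaining members passed in no main comparison. Gnai1 lay between 494 and 503 CPM, Gnb1 between 403 and 447, Gnb2 between 300 and 335, Gna11 between 243 and 266, Gnaz between 148 and 165, and Gng2 between 203 and 225. Gnai1, Gnb1, Gnb2, Gna11, Gnaz and Gng2 had differences between experiments from -0.11 to 0.03, with adjusted limma p-values from 0.209 to 0.883. Gnai2, Gnaq, Gnai3, Gnb4, Gng13, Gng10, Rgs6, Rgs19 and Rgs22 were not called either. Gnb4 (0.0431) and Rgs19 (0.0381) passed in limma once genotype was added as a term.

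Genes that act with G proteins were also called mostly lower in experiment 2. Of 31 tested partner genes, limma called 0 by genotype with or without the block, and 12 between experiments (38.7%, against the 23.7% of all genes), 10 lower and 2 higher. The adenylyl cyclases had 4 of 8 called, all lower: Adcy5, Adcy1, Adcy9 (-0.68) and Adcy3 (-0.41). Of the receptor kinases and arrestins 3 of 7 were called, with Arrb1 (-0.41) lower and Arrb2 (0.45) higher. Among effectors of Gq, Plcb1 (-0.55) was lower and Plcb4 (0.53) higher in experiment 2. Plcb1 had 128 and 83.4 CPM in TCRb-/- and 150 and 106 CPM in WT (genotype with the block, unadjusted limma p 0.00426, adjusted p 0.848). Ric8b, the chaperone of Gαs and Gαolf, was lower in experiment 2 (-0.49, SE 0.07, adjusted limma p 0.00688). Of the GIRK potassium channels, which Gβγ opens, 0 of 4 were called.

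Some members share exon bases with other genes, and which of these reads were counted is not given in the sources used here. In GENCODE M21 this held for 16 of the 45. Gng10 shared 79.4% of its exon bases with Gm20503 on the same strand. On the opposite strand Gng13 shared 51.4% with Chtf18, Gng3 24.2% with Bscl2, Gnas 23.7% with Nespas and Gm20721, and Gng2 20.4% with Gm48283. The levels of these 5 genes are therefore uncertain. Bscl2 had 117 and 133 CPM in TCRb-/- and 108 and 125 CPM in WT, below the levels of Gng3 in every library.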

How the data were processed

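Bulk RNA-seq of 4 pooled septal tissue libraries was analysed from the deposited table. Per the submitters' processing notes, which give no order, HISAT2 2.1.0, SAMtools 1.3, HTSeq 0.9.1, R 4.0.5 and limma 3.46.0 were used with mm10. Not given in the sources used here are the annotation, the strand setting and the row filter. The deposited values are log2 CPM with an offset of 0.5 reads, and whole reads were recovered for 100% of values within 0.001 reads. Per the labels' protocols, libraries were made from cytoplasmic RNA with a low-input kit.

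Of 15426 rows, 17 spike-ins were left out. CPM were computed from the recovered reads, and log2(CPM + 1) of the 13912 genes whose mean reached 1 CPM was fitted with limma 3.58.1 in R 4.3.3 (empirical Bayes with a trend, two-sided), with Benjamini-Hochberg adjustment over all of these genes and a threshold of 0.05. A difference on this scale understates the change of low genes. Python 3.11.15 was used for the other steps, and the fit was tested on simulated data. Same-numbered libraries share an experiment per the labels, which pairs them. Their deviations from the genotype means correlated at 0.719 over genes, with 76.7% of variance on the first principal component. With 2 libraries per genotype both pairs give this same value by construction. Replicate libraries differed beyond counting error (chi-square per degree of freedom 52.1 and 30.3). P-values measure the spread between these pools. Without the block, the genotype fit counts the difference between experiments as spread within a genotype. The standard error for Rgs4 was 0.42 in that fit and 0.07 with the block. Transcript lengths and exon overlaps are from GENCODE M21.

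Members called in a comparison, those whose genotypes did not overlap and the 2 highest per length in each family are given in full, with up to 10 partner genes past the threshold. Members, gene lists and tests were chosen with earlier results of these data known. Rgs17, Rgs16, Rgs5 and Rgs2 were singled out after their values were seen.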

Additional observations from a re-analysis of the deposited data

How the results depend on the processing

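Pseudocounts, filters, scalings, voom weights, the trend, the second factor as a term and each library left out were tried. Members called between experiments numbered 18 to 21 with all libraries, except 2 without the mean-variance trend (all genes 629), and 10 to 22 with a library left out (all genes 1406 to 3390). No member called between experiments changed sign. By genotype, the number of members called was 0 in each setting with all libraries, and with a library left out 0 to 2 (all genes 0 to 47, the highest without TCRb-/- replicate 1). With the experiment as a replicate block, which pairs the libraries, 2 of all genes and 0 members passed. With a library left out, the genotype difference ranged from -0.55 to 0.43 for Gnal, -1.52 to 0.75 for Gng7, -0.99 to 0.32 for Rgs14, -0.43 to 0.86 for Rgs16, -0.64 to 0.077 for Rgs7bp, -0.70 to 0.24 for Rgs8 and -1.60 to 0.51 for Rgs9. Where an arm kept 1 library, it was assumed to vary like the other arm. The cause of the changes was not tested. The labels tie no value to a single mouse, so variation among mice within a pool was not measured.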
